A study of Mus musculus with 6 samples.

Results

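The 6 homeobox genes that pattern the ventral forebrain or act in the neurons born there, Gsx1, Gsx2, Nkx2-1, Lhx6, Lhx8 and Isl1, were read in 4 peak lists of histone marks. They were chosen by name out of 21887 protein-coding genes on the autosomes, X and Y, with the Dlx genes left out. For each gene, peaks were taken over the RefSeq span in GRCm38 and 20 kb either side, a region of 42.3 to 64.3 kb. The cells were neural stem and progenitor cells from E13.5 mouse forebrain, grown in culture with EGF and FGF and used at low passage. Cells were kept for 24 h with 10 mM crotonate, which is used by cells to make crotonyl-CoA, the donor of histone crotonyl groups, or for 24 h with water. CUT&Tag, in which an antibody guides a transposase to a histone mark, was made for H3K4me3 and H3K27me3 with 1 library per mark and treatment, so nothing below has a replicate check or a p-value. IgG samples exist for both treatments and were not analysed here. The labels give neither the strain nor the number of embryos.

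The ganglionic eminences of the ventral forebrain give rise to GABAergic interneurons, to the projection neurons of the striatum and to cholinergic neurons. Gsx1 and Gsx2 are patterning factors of their progenitors, and Nkx2-1 sets the identity of the medial eminence. Lhx6, Lhx8 and Isl1 are LIM-homeodomain factors of the daughter neurons: Lhx6 acts in migrating interneurons, Lhx8 in cholinergic neurons, and Isl1 in cholinergic and striatal projection neurons. H3K4me3 marks active and poised promoters, and H3K27me3 is laid down by Polycomb complexes at genes of development that are kept silent. Chromatin was profiled in bulk, so a weak mark in all cells and a strong mark in a few cannot be told apart, nor can 2 marks on the same DNA and the same marks in different cells.

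The 6 genes fell into 3 states. Gsx1 carried H3K4me3 over its start after crotonate and after water. At Gsx2, Lhx6 and Lhx8 H3K4me3 peaks were called after crotonate and not after water, inside H3K27me3 domains present in both lists. At Nkx2-1 and Isl1 H3K27me3 was called in both lists and H3K4me3 in neither. The RefSeq promoters (GRCm38.p6, 250 bases before to 50 after a start) of the 3 genes with an H3K4me3 peak after crotonate only, and of Gsx1, the paralogue of Gsx2, are shown 5′ to 3′ on the gene's strand, with each CG dinucleotide in capitals. They lie at chr5:147188446-147188745 on the plus strand (Gsx1), chr5:75075351-75075650 on the plus strand (Gsx2), chr2:36105359-36105658 on the minus strand (Lhx6, the first of its 3 starts) and chr3:154330511-154330810 on the minus strand (Lhx8).
Gsx1: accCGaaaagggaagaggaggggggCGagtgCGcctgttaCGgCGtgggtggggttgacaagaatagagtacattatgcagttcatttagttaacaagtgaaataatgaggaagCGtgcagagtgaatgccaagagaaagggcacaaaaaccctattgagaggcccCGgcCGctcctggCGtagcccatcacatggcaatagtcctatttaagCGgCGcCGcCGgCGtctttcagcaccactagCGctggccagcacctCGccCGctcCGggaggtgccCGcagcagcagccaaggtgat
Gsx2: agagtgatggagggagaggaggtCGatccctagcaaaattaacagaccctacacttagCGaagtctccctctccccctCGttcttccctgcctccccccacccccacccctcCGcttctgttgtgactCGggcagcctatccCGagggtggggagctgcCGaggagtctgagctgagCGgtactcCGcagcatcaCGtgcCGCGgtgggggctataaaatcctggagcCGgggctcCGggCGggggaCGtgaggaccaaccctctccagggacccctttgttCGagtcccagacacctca
Lhx6: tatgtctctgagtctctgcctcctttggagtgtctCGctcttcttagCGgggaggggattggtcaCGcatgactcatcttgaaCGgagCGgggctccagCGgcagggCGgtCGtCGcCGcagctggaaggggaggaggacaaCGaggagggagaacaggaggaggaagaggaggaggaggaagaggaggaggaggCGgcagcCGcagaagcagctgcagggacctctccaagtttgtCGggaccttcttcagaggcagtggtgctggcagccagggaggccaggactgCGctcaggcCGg
Lhx8: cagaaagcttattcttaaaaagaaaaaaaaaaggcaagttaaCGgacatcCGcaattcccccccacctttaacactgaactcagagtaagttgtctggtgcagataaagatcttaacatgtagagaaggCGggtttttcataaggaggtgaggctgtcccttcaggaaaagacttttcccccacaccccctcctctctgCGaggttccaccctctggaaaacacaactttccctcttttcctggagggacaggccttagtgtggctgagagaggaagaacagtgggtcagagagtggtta
The Gsx1, Gsx2 and Lhx6 promoters hold 19, 17 and 16 CG dinucleotides, and that of Lhx8 holds 4, against a median of 7 over 32851 promoters of the same length. Over the 1316 promoters under H3K27me3 in water with no H3K4me3 there, the median was 12.5. All 300 bases of the Gsx1 promoter lay under H3K4me3 after crotonate and after water, and 0 of them under H3K27me3. All 300 bases of the Lhx6 promoter lay under H3K27me3 after both treatments and under H3K4me3 after crotonate alone. The Gsx2 and Lhx8 promoters lay under H3K27me3 after both treatments, with their H3K4me3 peaks beginning further into the gene.

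The lists held 16007 H3K4me3 peaks after crotonate and 13221 after water, and 15879 H3K27me3 peaks after crotonate and 7643 after water. Fragment totals are not stated, and depth estimated from the lists was 1.16 times as high after crotonate for H3K4me3 and 0.811 times for H3K27me3, with a background 1.80 times as deep. Lists of the same mark therefore differ in the power to call a weak peak. As a check of the label, H3K4me3 lay within 2 kb of an annotated end of 8 of 10 neural progenitor genes in both lists, Pax6 and Msi1 being the exceptions, and of 4 of 5 forebrain genes after crotonate and 3 of 5 after water, Lhx2 included in both. It was called at 0 of 5 microglial genes in both lists, at 1 of 5 endothelial genes in both (Kdr) and at 1 of 5 fibroblast and pericyte genes after crotonate (Col1a1) and 0 of 5 after water. H3K27me3 was called at 3 of the 5 forebrain genes (Lhx2, Emx1 and Six3) in both lists. At the neural progenitor genes it was called at 0 of 10 in both. The part of microglial, endothelial, fibroblast and pericyte cells in the results was not tested.

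**Figure D1:**
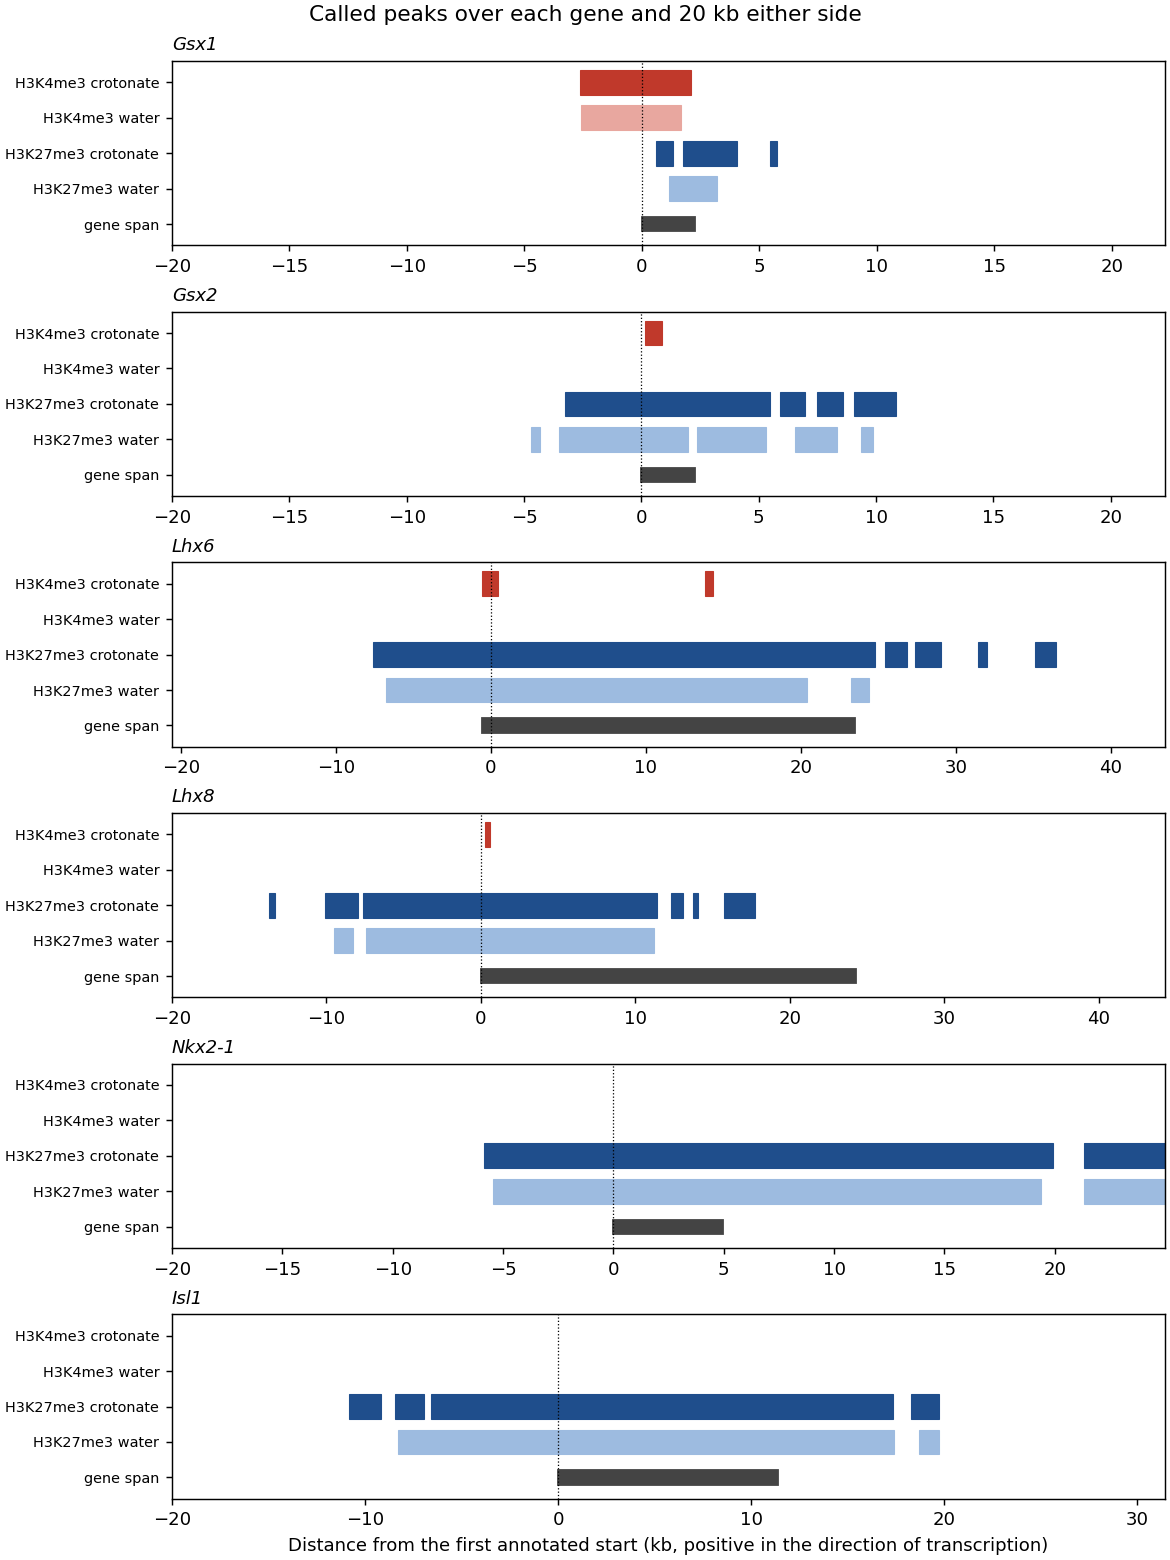
Called peaks over each gene and 20 kb either side, plotted as distance in kb from the first RefSeq start in the direction of transcription, with rows for H3K4me3 and H3K27me3 after crotonate and after water and the gene span below. H3K4me3 lies over the start of Gsx1 in both treatments and near the starts of Gsx2, Lhx6 and Lhx8 after crotonate alone, while H3K27me3 domains cover the starts of every gene but Gsx1.

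The first comparison asked where H3K4me3 was found after crotonate and after water. It was called in the regions of 4 of the 6 genes after crotonate and 1 of 6 after water, and 3 genes (Gsx2, Lhx6 and Lhx8) had it after crotonate only. Over all protein-coding genes, the region held an H3K4me3 peak in 68.9% of cases after crotonate, in 65.4% after water and after crotonate only in 3.45%. Among the 1015 genes whose region in water held H3K27me3 and no H3K4me3, 41.1% had H3K4me3 after crotonate, and among the 5 such genes of this group 3 did. Set beside that share, the count of 3 is near the background. No gene of the 6 had an H3K4me3 peak after water only, which was the case for 0.0183% of all genes.

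Gsx1, on chromosome 5 from 147188696 to 147190947, had a single H3K4me3 peak in each list. It measured 4715 bp after crotonate and 4269 bp after water, 1.10 times as long after crotonate, against a median ratio of 1.32 for covered length over the 14319 genes with H3K4me3 in their region in water. The upstream edge lay 2628 bp before the start after crotonate and 2606 bp before it after water, and the downstream edge 2086 bp into the gene after crotonate and 1662 bp after water. The summit was at the same base in both lists, 280 bp past the start. In the crotonate list it had a −log10 q of 67.8. In length the peak was among the longest of its list in both treatments, at percentile 98.1 after crotonate and 98.6 after water.

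At Lhx6, on chromosome 2 from 36081950 to 36105992, 2 H3K4me3 peaks were called after crotonate and none after water. The first spanned 36104985 to 36106005, 1021 bp long. It ran from 597 bp before the first RefSeq start to 423 bp past it, with its summit 33 bp past that start. That start, at 36105408, lies inside the gene span, whose upstream end on this strand is 36105992. Nearly all of the peak therefore lay within the span. The authors' fold enrichment at its summit was 6.53 and its −log10 q 7.09. The second, 507 bp long, lay inside the gene, 13.8 to 14.3 kb from the first start and 12468 bp from the nearest of the 3 RefSeq starts. It had the higher values, a fold enrichment of 6.88 and a −log10 q of 8.10, so the peak away from any listed start was called no less firmly than the one on it.

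Gsx2, on chromosome 5 from 75075601 to 75077893, had an H3K4me3 peak of 721 bp after crotonate, at 75075751 to 75076471. It began 150 bp past the start, reached 870 bp into the gene, and had a fold enrichment of 5.70 and a −log10 q of 4.97. Lhx8, on chromosome 3 from 154306288 to 154330560, had the shortest and weakest peak of the group, 315 bp at 154329950 to 154330264, from 296 to 610 bp past the start. Its fold enrichment was 3.52 and its −log10 q 2.06, close to the lowest value in the crotonate list, 1.31. So the new peaks of Gsx2 and Lhx8 sat just inside the transcribed side of the listed start, and the start peak of Lhx6 straddled its first listed start. No contrast is drawn from this, because the Lhx6 span reaches upstream of that start.

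All 4 of these peaks were far weaker than a typical H3K4me3 peak. Among peaks with no counterpart in the water list, those of Gsx2 and Lhx6 lay above the middle by −log10 q, and that of Lhx8 lay near the bottom. The median −log10 q was 57.5 over the whole crotonate list and 4.61 over the 3371 peaks with no counterpart. Of those 3371, 78.4% had a lower −log10 q than the intragenic Lhx6 peak, 71.6% a lower one than the Lhx6 start peak, 54.3% a lower one than the Gsx2 peak and 8.13% a lower one than the Lhx8 peak. Every base of the 4 peaks lay on H3K27me3 after crotonate and on H3K27me3 called in water. The 2 kb either side of the first start of these 3 genes lay wholly under H3K27me3 in water, as did 88.4% of the Lhx6 span. A peak near these starts could therefore lie nowhere else. Of all 3371, 18.3% (17.0 to 19.7, exact Clopper-Pearson 95% interval for counting error only) had any overlap with H3K27me3 called in water. That share is a looser measure over all regions, so no contrast is drawn from it. With peaks of −log10 q of at least 5, or with lists of equal length, Lhx6 alone had H3K4me3 after crotonate only, and with fold enrichment of at least 5 or a matched background depth Lhx6 and Gsx2 did. With 50 kb either side Lhx8 alone did, since the wider regions of Gsx2 and Lhx6 hold H3K4me3 peaks in water.

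**Figure D2:**
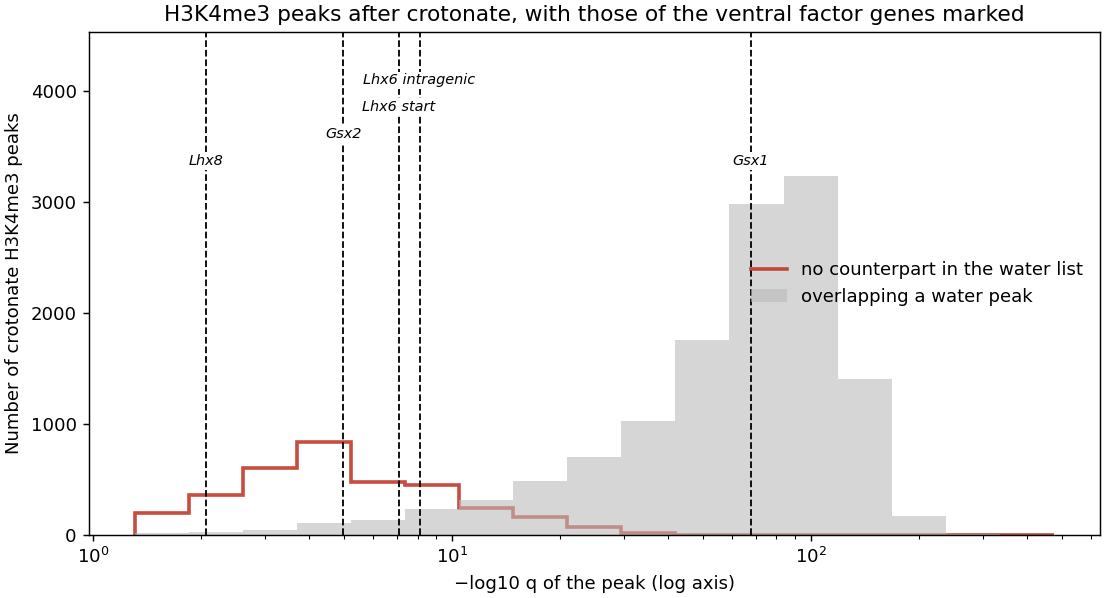
Number of crotonate H3K4me3 peaks by −log10 q (log axis), for peaks with no counterpart in the water list (red line) and peaks overlapping a water peak (grey), with dashed lines at the peaks of the ventral factor genes. The peaks of Lhx8, Gsx2 and Lhx6 lie at 2.06, 4.97, 7.09 and 8.10 among peaks with no counterpart, and that of Gsx1 lies at 67.8 among shared peaks.

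At Nkx2-1, on chromosome 12 from 56531935 to 56536908, and Isl1, on chromosome 13 from 116298270 to 116309688, H3K4me3 was not detectable after crotonate or after water at the depth of these lists. H3K27me3 in both lists with H3K4me3 in neither was found at 591 genes, 2.7% of all. Among the 1015 genes with H3K27me3 and no H3K4me3 in water, these 591 are the more common outcome. Of the 5 such genes of this group 2 had it. In covered length per region, H3K4me3 ranged over the 6 genes from 0 to 11.2% after crotonate, with a median of 1.10%, and from 0 to 10.1% after water, with a median of 0. Over all genes the medians were 2.39% after crotonate and 1.74% after water.

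**Figure D3:**
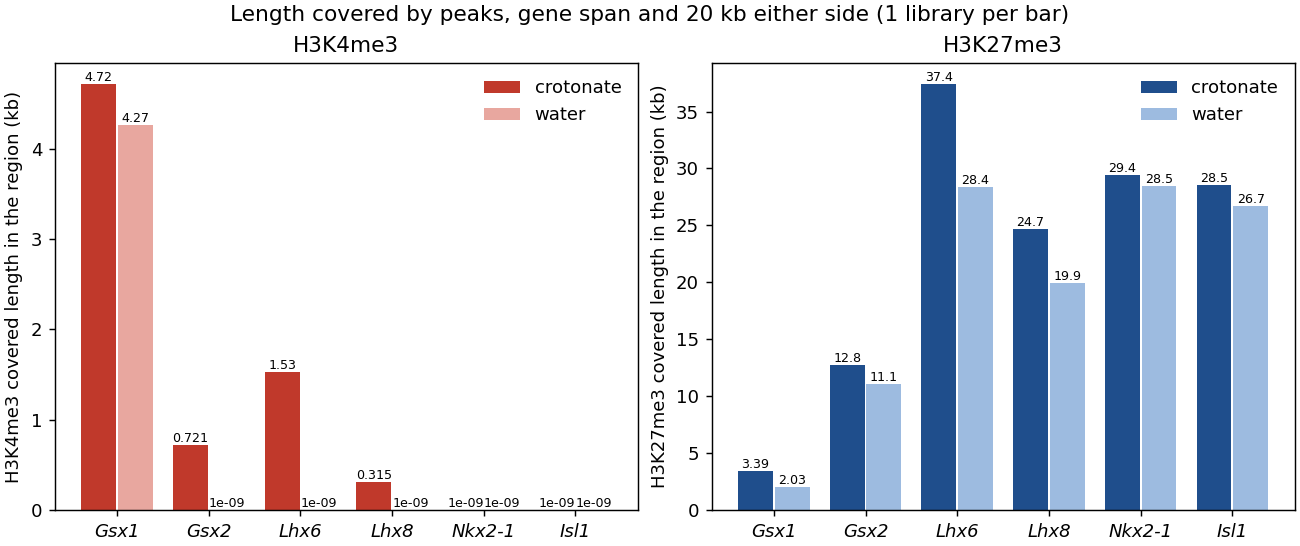
Length in kb covered by H3K4me3 peaks (left) and H3K27me3 peaks (right) in the region of each gene, with 1 library per bar, crotonate beside water. H3K4me3 covers 4.72 kb (crotonate) and 4.27 kb (water) at Gsx1 and at most 1.53 kb elsewhere, and the H3K27me3 bar is higher for crotonate at each of the 6 genes.

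The second comparison asked how much of each region carried H3K27me3. The mark was called at 6 of 6 genes after crotonate and after water, against 25% and 17.5% of all protein-coding genes. It covered a median of 46.9% of the region after crotonate and 37.6% after water, against 8.02% and 4.64% over the 3823 genes with H3K27me3 in their region in water. The range over the 6 genes was 8.03 to 65.5% after crotonate and 4.80 to 63.3% after water. Gsx1 was the lowest in both lists, close to the medians of the 3823. Covered length was higher after crotonate at 6 of 6 genes, against 23.1% of all genes, most of which had no H3K27me3 in either list. Of the 5477 genes with the mark after crotonate, 5056 had a higher covered length there. Set beside that count, 6 of 6 is near the background. Covered length was over 1.5 times higher at 1 of 6 (Gsx1), against 16.2% of all genes, or 3548. Those 3548 include the 1768 genes with the mark after crotonate only, and the rest are among the 3823 with it in water. All 6 genes had the mark in water, so the share of 16.2% is not a like background for them. The median ratio of crotonate to water was 1.19 over the 6 genes and 1.44 over the 3823, so the median of the 6 was below that of the 3823. With lists of equal length it was higher at 4 of 6.

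The ratio of H3K27me3 covered length was lowest at Nkx2-1 and Isl1. The Nkx2-1 region was covered over 29.4 kb after crotonate and 28.5 kb after water, a ratio of 1.03. Its main domain measured 25.8 kb after crotonate and 24.8 kb after water and reached from 5.85 kb before the start to 19.9 kb past it after crotonate, and from 5.46 kb before to 19.4 kb past after water. The whole gene span lay under H3K27me3 in both lists, and so did 53.1% of the neighbouring lncRNA gene Sfta3-ps after crotonate and 50.3% after water. At Isl1 28.5 kb was covered after crotonate and 26.7 kb after water, a ratio of 1.07. After crotonate a domain of 23.9 kb and a separate peak of 1512 bp upstream of it overlapped a single domain of 25.7 kb in water, and a further 1656 bp peak upstream had no counterpart in water. The summit of the Isl1 domain lay at the same base in both lists, 4.29 kb past the start.

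Lhx6 had the domain with the highest −log10 q of the 6 genes within each list and the largest difference in length. Its region was covered over 37.4 kb after crotonate and 28.4 kb after water, which is 9.00 kb more and a ratio of 1.32. The main domain measured 32.4 kb after crotonate and 27.2 kb after water and had its summit at the same base in both. The crotonate domain also overlapped a separate 1198 bp water peak at the 3′ end of the gene, and the gene span was covered over 100% after crotonate and 88.4% after water. Another 4 peaks of 620 to 1665 bp, with −log10 q between 2.88 and 11.5, were called beyond the 3′ end after crotonate only. These lay wholly or partly over Morn5, whose span ends 2241 bp from that of Lhx6 and was covered over 15.7% after crotonate and 0% after water.

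At Lhx8 the main domain hardly differed, 18996 bp after crotonate and 18650 bp after water. It ran from 7.60 kb before the start to 11.4 kb past it after crotonate, and from 7.41 kb before to 11.2 kb past after water. Covered length in the region was 24.7 kb after crotonate and 19.9 kb after water, and 4 of the 6 crotonate peaks, of 356 to 1998 bp, had no counterpart in water. Of these, 3 lay further into the gene and 1 upstream. The lncRNA gene AI606473, which begins 261 bp from Lhx8 and is named here after its values were seen, lay wholly under H3K27me3 in both lists. The 315 bp H3K4me3 peak called after crotonate also lay within 2 kb of an end of this gene. Its position therefore does not assign that peak to Lhx8 alone.

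The longest H3K27me3 peaks at Gsx2 and Gsx1 were shorter than those of the other 4 genes in both lists. At Gsx2, 4 peaks covered 12.8 kb after crotonate and 5 peaks covered 11.1 kb after water. A single crotonate peak of 8771 bp overlapped water peaks of 5509 and 2976 bp. The start lay inside the longest peak of each list. A 363 bp water peak, 4.34 kb upstream, with a −log10 q of 1.77, had no counterpart after crotonate. At Gsx1 H3K27me3 lay only downstream of the start, in peaks of 757, 2299 and 337 bp after crotonate and a single peak of 2030 bp after water, with −log10 q no higher than 6.42 after crotonate and 4.29 after water. The 2 kb either side of the Gsx1 start were covered over 24.6% after crotonate and 20.6% after water, whereas those of the other 5 genes were covered over 100% in both lists.

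At Gsx1 and Gsx2 the direction turned when the longer list was shortened. With lists of equal length, covered length at Gsx1 differed by -1693 bp (crotonate minus water) and at Gsx2 by -1264 bp. A crotonate H3K27me3 peak with no counterpart was found at 4 of the 6 genes (Gsx1, Lhx6, Lhx8 and Isl1), against 19.1% of all genes. A water peak with none was found at 1 of 6 (Gsx2), against 2.5%. Most genes had no H3K27me3 in either list and could not be called. Of the 5477 genes with a crotonate H3K27me3 peak, 4178 had one with no counterpart. Of the 3823 with a water peak, 547 had one with none. Set beside those counts, 4 of 6 and 1 of 6 are near the background.

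The third comparison counted bases under both marks, the pattern called bivalent. After crotonate 4 of the 6 genes had such bases and after water 1, against 10.5% and 5.77% of all genes. Such bases need H3K27me3, which all 6 genes had and most genes lacked. They were found at 2303 of the 5477 genes with H3K27me3 after crotonate, and at 1263 of the 3823 with it after water. Beside the latter count, 1 of 6 after water is not above the background. At Gsx1 bases under both marks numbered 1071 bp after crotonate and 488 bp after water. After crotonate 721 bp at Gsx2, 1528 bp at Lhx6 and 315 bp at Lhx8 carried both marks, and 0 bp after water. No gene of the 6 had such bases after water only, against 0.42% of all genes. Having such bases after crotonate only was seen at 3 of 6 genes and at 5.17% of all genes. These are the 3 genes, and the same peaks, counted above for H3K4me3 after crotonate only. That count was near the share of 41.1% among genes with H3K27me3 and no H3K4me3 in water, so this is not a separate result. At these 3 genes the overlap was the whole H3K4me3 peak set within a far longer H3K27me3 domain, while at Gsx1 it took up part of a long H3K4me3 peak. The 488 bp at Gsx1 after water lay at the downstream edge of that peak, and after crotonate 757 bp lay inside it and 314 bp at the downstream edge. At a matched background depth the Gsx1 overlap differed by -174 bp (crotonate minus water), and with lists of equal length by -488 bp.

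Another 34 genes of ventral forebrain and interneuron transcription factors and LIM cofactors, with the Dlx genes again left out, were read in the same way. H3K4me3 was called at 33 of 34 after crotonate and 30 of 34 after water, against 68.9% and 65.4% of all genes. At 3 of 34 it was called after crotonate only, against 3.45% of all genes. These were Six3, a forebrain and eye homeobox gene, Ikzf1, a zinc-finger gene of lymphoid cells and striatal neurons, and Ldb2, a cofactor of LIM-homeodomain proteins. Of the 3 with H3K27me3 and no H3K4me3 in water, 2 had H3K4me3 after crotonate, against 41.1% of all such genes. Six3 had 3.58 kb of H3K4me3 after crotonate, with a highest −log10 q of 7.45, in a region with 33.8 kb of H3K27me3 after crotonate and 27.5 kb after water. Ikzf1 had 1.25 kb of H3K4me3 and 6.67 kb of H3K27me3 after crotonate, and 4.62 kb of H3K27me3 alone after water. Ldb2 had 0.456 kb of H3K4me3 after crotonate and no H3K27me3 in either list. Six3 and Ikzf1 thus had the same combination of marks as Gsx2, Lhx6 and Lhx8, with all of their H3K4me3 on H3K27me3.

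H3K27me3 was called at 22 of these 34 genes after crotonate and 20 of 34 after water, against 25% and 17.5% of all genes. The 2 with it after crotonate only, against 8.08% of all genes, were Nkx2-2, a ventral homeobox gene, and Bcl11b, a factor of striatal and deep-layer cortical neurons. The Nkx2-2 peak covered 0.737 kb with a −log10 q of 2.30 and the Bcl11b peak 0.531 kb with a −log10 q of 2.84, and neither was left with lists of equal length, at a matched background depth, or with −log10 q or fold enrichment of at least 5. Bases under both marks were found at 17 of 34 after crotonate and at 13 of 34 after water, against 10.5% and 5.77% of all genes. Over all genes with H3K27me3, they were found at 2303 of 5477 after crotonate and 1263 of 3823 after water. At 6 of the 34 they were found after crotonate only (Nkx2-2, Foxp2, Npas1, Zic1, Ikzf1 and Six3), against 5.17% of all genes. At 2 they were found after water only (Foxp1 and Lmo1), against 0.42%. Vax1, a homeobox gene of the ventral forebrain and optic stalk, was the single gene of the 34 with H3K27me3 in both lists and H3K4me3 in neither, as at Nkx2-1 and Isl1. It was covered by H3K27me3 over 35.8 kb after crotonate and 29.6 kb after water.

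**Figure D4:**
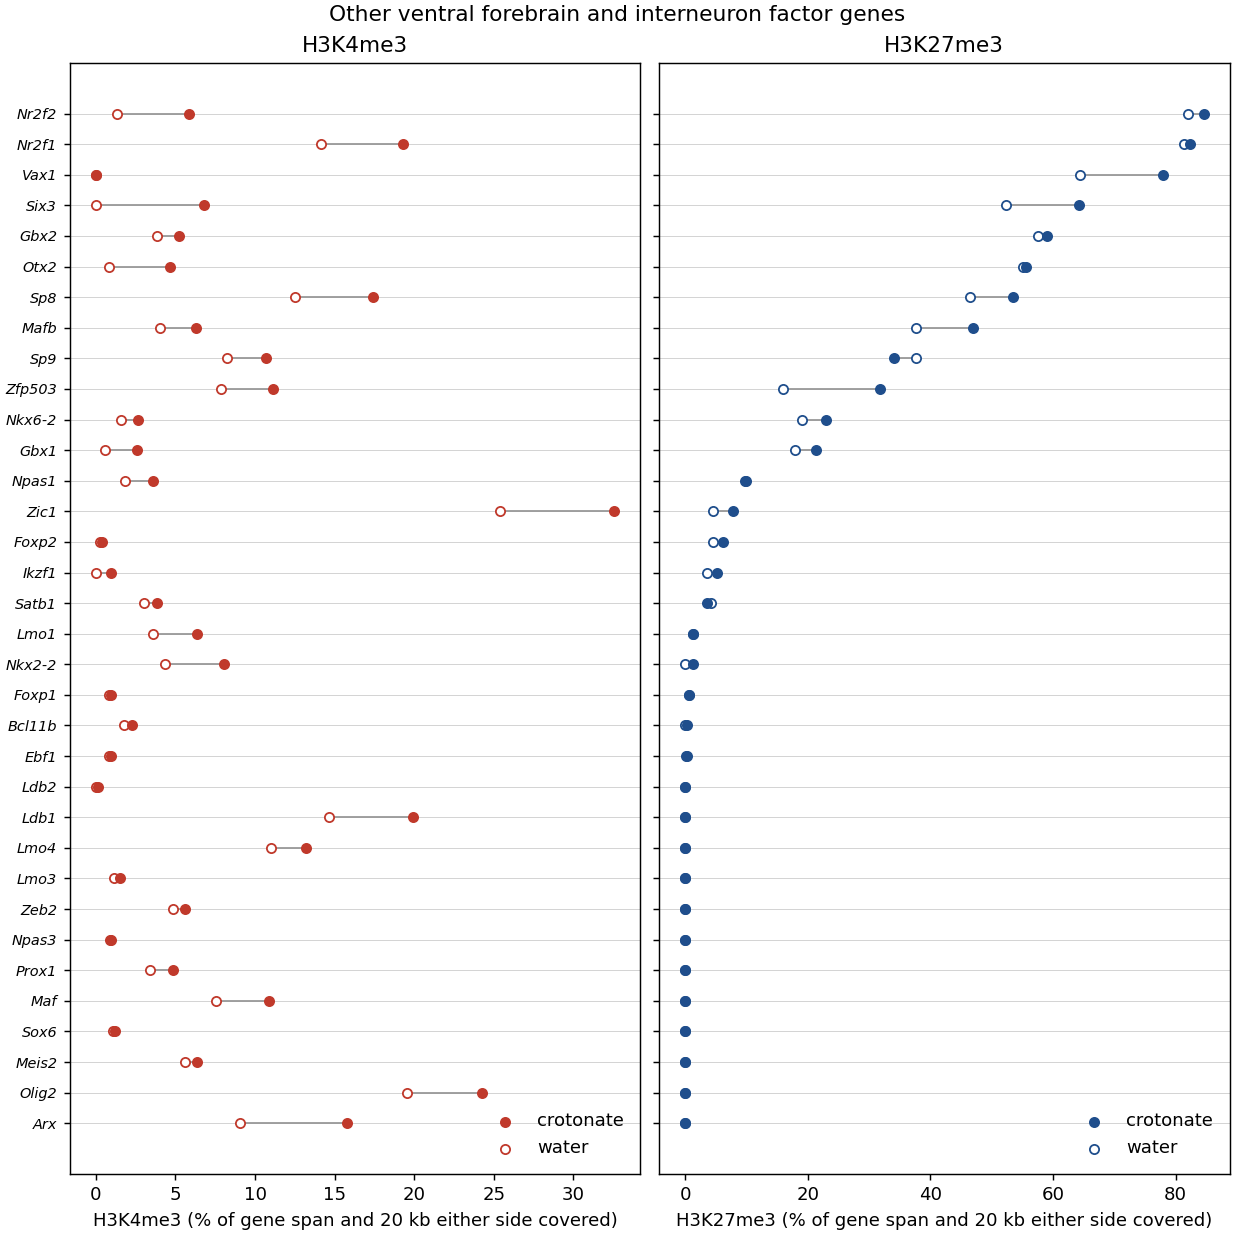
Percentage of the region (gene span and 20 kb either side) covered by H3K4me3 (left) and H3K27me3 (right) at the other 34 ventral forebrain and interneuron factor genes, after crotonate (filled) and after water (open), sorted by H3K27me3 after crotonate. The filled H3K4me3 point lies to the right of the open one at 33 genes, and Vax1 has none in either treatment. For H3K27me3 it lies to the right at 19 genes and to the left at 3.

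The genes whose marks were most like the median of the 6 were sought over the 4 libraries, as the Euclidean distance between the 4 covered percentages. The 5 nearest were Tbx18 (0.855 percentage points), Scube2 (1.61), Dmrt3 (1.67), Lhx5 (1.68) and Foxd4 (2.43). Tbx18 was covered by H3K4me3 over 1.11% after crotonate and 0% after water, and by H3K27me3 over 47.4% and 38.3%. The 6 genes themselves lay 10.9 (Lhx8) to 52.9 (Gsx1) percentage points from their own median, so that median describes none of them closely.

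Short motifs were looked for on both strands of the 8 RefSeq promoters of the 6 genes, and no motif contains the letters of another. The homeodomain core TAATTA was found in 0 of 8, against 5.29% of all promoters. The Nkx2 core CAAGTG was found in 1, 156 bases before the start of Gsx1, against 13.6% of all promoters. The E-box CAGCTG was found in 2, at 131 and 40 bases before the first start of Lhx6 and 103 bases before that of Isl1, against 16.3%. The search covers these letters in these windows and nothing beyond them.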

How the data were processed

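CUT&Tag peak lists of H3K4me3 and H3K27me3 after crotonate and after water, 1 library each, were used as deposited. Per the submitters' processing notes, the build was GRCm38 and the tools were MACS2 2.2.7.1, Picard 2.22.0, SAMtools 1.10 and Bowtie2 2.4.1. Their settings and the library taken as background were not given in the sources used here. Each line gives a peak with, per the file headers, the pileup signal at its summit, −log10 of p and q, and fold enrichment, a ratio of signal to local background made by the authors' caller. Fold enrichment was read here as (signal + 1) / (background + 1). Lists of the same mark were called separately, so peak number and width depend on depth. These peak values are the authors' own and describe or filter peaks within a list.

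Peaks were compared with scipy 1.17.1, numpy 2.4.6 and pandas 2.3.3 under Python 3.11.15 (figures: matplotlib 3.10.9), with code checked on simulated intervals. A peak was shared with 1 bp of overlap. Covered length was clipped to the region. Depth ratios rest on the step of the pileup values, of which all lay within 0.006 of a whole multiple, and on the lowest local background per bp of the shortest peak. This takes the shortest peak as 1 fragment long, which was not tested. For the matched background depth, pileup and background of each crotonate peak were divided by 1.80, p was recomputed, and peaks under the lowest −log10 p of the water list were dropped. Over the peaks as deposited, such recomputed p lay within 1% of the authors' value for 99.5% of the H3K4me3 list after water. That was the lowest share of any list.

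Genes, starts and promoters came from RefSeq tables of GRCm38.p6, the build of the peaks. The starts table holds 17492 of the 21887 genes and all of the 6. No test was made, for want of replicates. Some listed genes are not reported here and were left out of the list counts. The genes, the list of 34 other factors, the markers and 8 alternatives were chosen with earlier results of these data known, and 1 alternative (2 kb around RefSeq starts) after the data were seen. The rule for named genes took all 6 genes, up to 6 list genes per mark and direction with a mark in 1 list only, coding neighbours with a peak near an end, and the 5 genes nearest in profile. Genes named beside these were chosen after their values were seen.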

Additional observations from a re-analysis of the deposited data

How the results depend on the processing

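The number of the 6 genes with H3K4me3 after crotonate only, 3 in the analysis reported, was 1 with −log10 q of at least 5, with lists of equal length and with 50 kb either side. The number with both marks on the same bases after crotonate only, also 3, was 1 with −log10 q of at least 5 and with lists of equal length. Longer H3K27me3 coverage, at 6 genes, was found at 3 with 2 kb at both gene ends and at 1 with 2 kb around RefSeq starts, where the window was already full at 5 genes; an H3K27me3 peak without a counterpart, at 4 genes, was found at 1 and 0. For H3K27me3 covered length, Gsx1 differed by -1693 bp (crotonate minus water) with lists of equal length, and Gsx2 by -1264 bp there and by -415 bp with −log10 q or fold enrichment of at least 5. For bases with both marks Gsx1 differed by -488 bp with lists of equal length and by -174 bp at a matched background depth. Of the 34 other factors, the 2 with H3K27me3 after crotonate only were 4 with 5 kb either side, and 0 with lists of equal length, at a matched background depth and with 2 kb around RefSeq starts, and the 6 with both marks after crotonate only were 3 with 2 kb around RefSeq starts. The cause of these differences was not tested beyond the alternatives' own construction, which drops weak peaks or changes the region. With −log10 q or fold enrichment of at least 5 the H3K27me3 count was 3, and 0 of the 2 genes were among them. Of 63 alternative values of the main counts, 49 lay within 1.5 times of the count reported, which does not say that they hold the same genes. The alternative with a reciprocal overlap of 50% alters only which peaks count as shared. It could change only the count of genes with an H3K27me3 peak without a counterpart. Its values for the other counts are therefore among the 49 by construction. No paired analysis was possible because each mark and treatment has 1 library.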

Other observations

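Promoters under H3K27me3 in water, with no H3K4me3 there, differed in CG content by whether H3K4me3 was called on them after crotonate. The 352 with H3K4me3 after crotonate had a median of 21 CG dinucleotides in 300 bases and a median ratio of observed to expected CG of 0.700, and the 964 without it had 10 and 0.472. This is a description over promoters that share 4 libraries. The Isl1 promoter held 37 CG dinucleotides, more than 94.2% of the 1316 such promoters, and no H3K4me3 was called at the gene after either treatment. The Lhx8 promoter held 4, with 11.7% of those promoters holding fewer, and the H3K4me3 peak called after crotonate lay past the promoter, with 0 bases on it. The Nkx2-1 promoter, without H3K4me3, held 12. The promoter of the first Lhx6 start, with H3K4me3 after crotonate, held 16, fewer than the median of 21. Those of the other Lhx6 starts held 17 and 11, with 0 bases under H3K4me3.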
